A study of Mus musculus with 6 samples.

Results

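The glutathione S-transferases, UDP-glucuronosyltransferases and sulfotransferases are the conjugating enzymes of the liver. Members were the genes whose mouse symbol starts with Gsta, Gstm, Gstp, Gstt, Gstk, Gstz, Gsto, Mgst, Ugt1, Ugt2, Ugt3 or Sult, found through the transcript accession that each probe carries. Of 70 such symbols in RefSeq, 48 were measured, by 52 probes, among 13971 named genes in all. They were 23 Gst and Mgst genes, 13 Ugt genes and 12 Sult genes, and the other 22 symbols were not analysed here. RNA came from whole liver of C57BL/6 mice aged 14 months, 3 wild-type (replicates 1, 2 and 4) and 3 with human c-Src driven by a metallothionein promoter of the mouse (replicates 1, 3 and 4). No carcinogen was given to either group. Zinc can induce the transgene but was usually not needed, and the labels do not say whether these mice received it, which sex they were, or whether the tissue held tumour. The metallothionein promoter is not restricted to hepatocytes. The study used the arrays to look for genes downstream of Src, a proto-oncogene tyrosine kinase, in a line of which some mice develop liver tumours. It left out a further wild-type and a further transgenic sample for low signal.

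Conjugation makes lipophilic drugs, steroids, bile acids and reactive metabolites more water-soluble, so that they can leave the hepatocyte in bile or blood. Glutathione S-transferases couple electrophiles to glutathione, glucuronosyltransferases add glucuronic acid from UDP-glucuronate, and sulfotransferases add sulfate from PAPS. In mouse liver several of these genes are known to differ between the sexes. Many also respond to the xenobiotic receptors CAR and AHR and to the oxidant sensor NRF2.

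Values are log2 signals after quantile normalization between arrays, and a change is the transgenic minus the wild-type mean on that scale. Levels were compared for the same probe between arrays, never between genes. In bulk tissue, fewer cells of a type and less RNA per cell cannot be told apart. The transgenic arrays were brighter than the wild-type arrays before normalization, with median signals of 94.8 to 117 against 53.8 to 93.4. The Src probe, for which reading of the human transcript is not known, read 6.62 to 7.21 on the wild-type and 7.71 to 9.67 on the transgenic arrays, and Mt2, a metallothionein, read 4.87 to 5.85 and 9.68 to 11.06. The hepatocyte marker list, 9 of 12 genes measured and all above background on some array, had a summed signal of 195790 to 206970 in wild-type and 205250 to 212210 in transgenic livers. Transgenic replicate 4 stood apart on 3 of the 4 measured Y-linked genes. Eif2s3y read 4.94, Ddx3y 2.74 and Uty 5.18 there, all not above background, against 8.63 to 9.65, 6.75 to 7.73 and 6.18 to 7.10 on the other 5 arrays. Kdm5d read 9.03 on that array and 8.32 to 8.74 elsewhere. Values without that array are given beside the members that moved most with it. Bright or dim patches on the array surface touched 12 of the 48 members on at least 1 array, and 36 lay in none.

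No conjugating enzyme passed the test, and the family's median lay near that of all features. With limma, 0 of the 48 members passed an adjusted p of 0.05 in either direction, where the background over all 34175 features was 0%. At an unadjusted p under 0.05, 2 were higher (Sult1d1 and Sult2b1) and 1 was lower (Ugt2b38), beside 4.37% of all features higher and 2.72% lower. Positive log2 changes were measured for 24 members (51.7% of all features were positive) and negative ones for the other 24 (48.3% of features). The median log2 change of the members was -0.03 (all features 0.02), with a median absolute change of 0.22 (0.28). In 7 members every transgenic array lay above every wild-type array, and in 3 every one lay below, where 10.1% and 5.9% of all features did so. The members' shares, 4.17% and 2.08% at the unadjusted p and 14.6% and 6.25% by separation, are read against those backgrounds. Among the 19254 features above background on all 6 arrays, 3.9% were higher and 1.78% lower at the unadjusted p, 10.9% and 5.6% separated the groups, and 50.9% and 49.1% had positive and negative changes. Median scaling of the arrays gave 3 members above and 6 below (8.03% and 7.57% of features) in place of 7 and 3. At an unadjusted p it gave 1 higher (Sult2b1) and 3 lower (Gstm1, Gstp1 and Ugt2b38), with all features at 2.76% higher and 3.84% lower. It also moved the median of all features to -0.08 and that of the members to -0.21. Of the 48 members, 41 were above background on all 6 arrays, 2 on 4, 3 on 3 and 2 on 2.

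**Figure D1:**
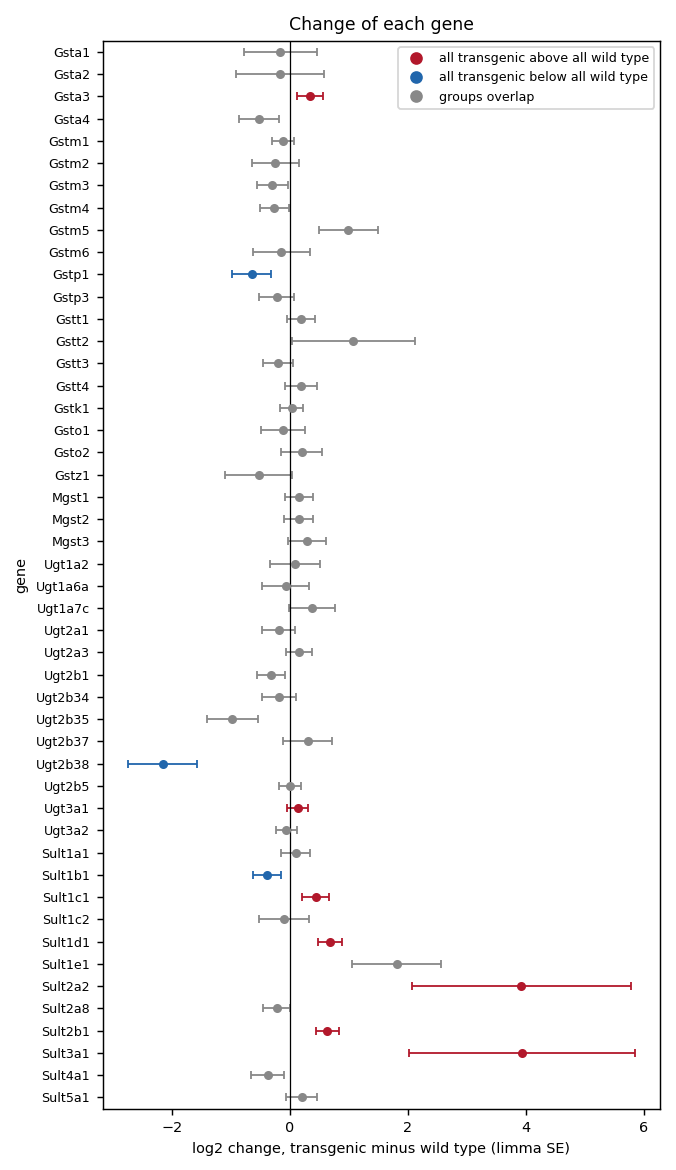
Log2 change of each of the 48 genes (horizontal axis, transgenic minus wild-type mean), with points for the estimate and bars for limma's SE, grouped by class from Gsta at the top to the other Sult genes at the bottom. Red points mark the 7 genes with every transgenic array above every wild-type array, blue points the 3 with every one below and grey points genes whose groups overlap; the values of Sult2a2 and Sult3a1 near 3.9 have the widest bars.

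The classes differed in where their larger values lay. The 12 Sult genes had a median log2 change of 0.32 and ran from -0.39 to 3.94. The 13 Ugt genes had a median of -0.06 and ran from -2.16 to 0.38. The 23 Gst and Mgst genes had a median of -0.12 and ran from -0.64 to 1.08. The medians are descriptions of these genes, beside 0.02 for all features. Sult1e1, Sult2a2, Sult2b1, Sult3a1 and Sult4a1 were not above background on all 6 arrays, nor were Gstt2 and Ugt2b37. The 41 members above background on all 6 arrays ran from -2.16 to 0.99, with a median of -0.10.

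The promoters of 4 members, chosen by hand among those that separated the groups, are printed here. None of these genes passed an adjusted limma p of 0.05. Each runs from 250 bases before to 50 after the RefSeq start of the gene on GRCm38.p6, in the direction of transcription. Sult3a1 lies at chr10:33857472-33857771 (plus strand), Sult1d1 at chr5:87568957-87569256 (minus), Gstp1 at chr19:4037863-4038162 (minus) and Ugt2b38 at chr5:87424154-87424453 (minus). Capitals mark TTCNNNGAA, the STAT5 site, in Sult3a1, GTTAATNAT, the core of an HNF1 site, in Sult1d1 and GCGTG, the AHR core, in Gstp1. Sult1d1 also had a match to the AHR core, which is left in lower case. Ugt2b38 had no match in this window.
Sult3a1: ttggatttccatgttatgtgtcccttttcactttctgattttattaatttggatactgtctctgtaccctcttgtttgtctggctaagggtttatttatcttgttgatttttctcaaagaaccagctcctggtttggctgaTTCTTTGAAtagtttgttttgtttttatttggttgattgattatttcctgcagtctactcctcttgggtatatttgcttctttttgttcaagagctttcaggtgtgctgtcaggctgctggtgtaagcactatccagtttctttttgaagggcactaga
Sult1d1: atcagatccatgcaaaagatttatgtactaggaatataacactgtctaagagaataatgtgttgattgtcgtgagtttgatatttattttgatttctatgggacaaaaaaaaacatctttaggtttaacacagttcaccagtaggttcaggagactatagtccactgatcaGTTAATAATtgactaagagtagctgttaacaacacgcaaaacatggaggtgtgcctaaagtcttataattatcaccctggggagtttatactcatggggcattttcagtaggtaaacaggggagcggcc
Gstp1: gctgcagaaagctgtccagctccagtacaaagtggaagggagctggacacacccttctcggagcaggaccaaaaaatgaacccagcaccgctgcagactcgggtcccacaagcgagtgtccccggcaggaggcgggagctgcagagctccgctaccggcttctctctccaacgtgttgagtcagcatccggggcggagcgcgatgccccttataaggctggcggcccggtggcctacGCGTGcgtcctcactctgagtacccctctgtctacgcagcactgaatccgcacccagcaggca
Ugt2b38: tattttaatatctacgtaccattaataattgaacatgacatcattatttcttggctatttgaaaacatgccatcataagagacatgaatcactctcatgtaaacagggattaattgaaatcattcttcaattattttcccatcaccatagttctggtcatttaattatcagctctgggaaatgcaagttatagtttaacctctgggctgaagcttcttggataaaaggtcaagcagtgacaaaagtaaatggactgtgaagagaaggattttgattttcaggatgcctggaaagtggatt

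Each motif was sought on both strands of the promoters in the RefSeq table, which held 54 promoters of 43 members. TTCNNNGAA, which reads the same on both strands, was in promoters of 6 members (Gsta1, Gstm6, Mgst1, Mgst2, Sult3a1 and Ugt1a6a) and in 8.3% of all 32851 promoters. GTTAATNAT was in Sult1d1 and no other member with a promoter entry, and in 0.801% of all promoters. The antioxidant response element core TGACNNNGC was in 3 members (Gsta3, Gstm5 and Mgst1; 12.4% of all promoters), and GCGTG in 10 (32.4%). The STAT5 match in Sult3a1 lay at -109 to -101 from the start and the HNF1 match in Sult1d1 at -79 to -71. These matches describe letters, and no binding was measured.

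Sult3a1, an amine N-sulfotransferase, and Sult2a2, a hydroxysteroid sulfotransferase, gave the largest values. Sult3a1 read 4.91, 4.96 and 5.43 on wild-type replicates 1, 2 and 4 and 6.49, 6.86 and 13.77 on transgenic replicates 1, 3 and 4. Sult2a2 read 4.75, 4.71 and 4.63 in wild-type and 6.72, 5.93 and 13.23 in transgenic livers. Both genes lay higher on all 3 transgenic arrays, and transgenic replicate 4 stood far above the other two. Both probes were above background on all transgenic arrays, Sult3a1 also on 1 wild-type array and Sult2a2 on none.

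The log2 change of Sult3a1 was 3.94 ± 1.91 (limma SE), with an adjusted p of 0.69. No fold is given, since 2 of the 3 wild-type arrays were not above background. Sult2a2 was at least 8.38-fold higher, a bound set against the lowest signals above background, with a measured log2 change of 3.93 ± 1.86 and the same adjusted p. Without transgenic replicate 4 the log2 change was 1.57 for Sult3a1 and 1.63 for Sult2a2, and the bound for Sult2a2 was 1.70-fold. Without replicate 1 the log2 changes were 5.21 and 4.88, and without replicate 3 they were 5.03 and 5.28. A two-sided exact permutation test over the 6 arrays gave p = 0.1 for each gene, as for all 10 members whose groups did not overlap, and 3 against 3 arrays allow no smaller p. A dimmer Sult2a2 probe was above background on transgenic replicate 4 alone, where it read 6.95 against 2.38 to 4.26 on the other 5 arrays. Sult2a2 lies in a row of 8 Sult2a genes, and Sult3a1 beside Sult3a2, so the probes may read close paralogs. Sult2a8, the other measured gene of that row, read 9.39 to 9.77 in wild-type and 9.01 to 9.48 in transgenic livers, and the groups overlapped.

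Sult1e1, the estrogen sulfotransferase, followed another order of arrays. It read 4.92, 3.65 and 3.65 on wild-type replicates 1, 2 and 4 and 7.42, 5.58 and 4.65 on transgenic replicates 1, 3 and 4. Replicate 1 was the highest of the transgenic arrays and replicate 4 the lowest, inside the wild-type range. The log2 change was 1.81 ± 0.75 (SE; limma adjusted p = 0.69), 1.04 without transgenic replicate 1 and 2.43 without replicate 4. Sult1e1 was above background on 2 transgenic arrays and no wild-type array, and the groups overlapped. Its transgenic mean was 1.25-fold above the lowest signals above background. That mean includes transgenic replicate 4, not above background, so 1.25 is not a bound. Without that array Sult1e1 was at least 1.92-fold higher.

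**Figure D2:**
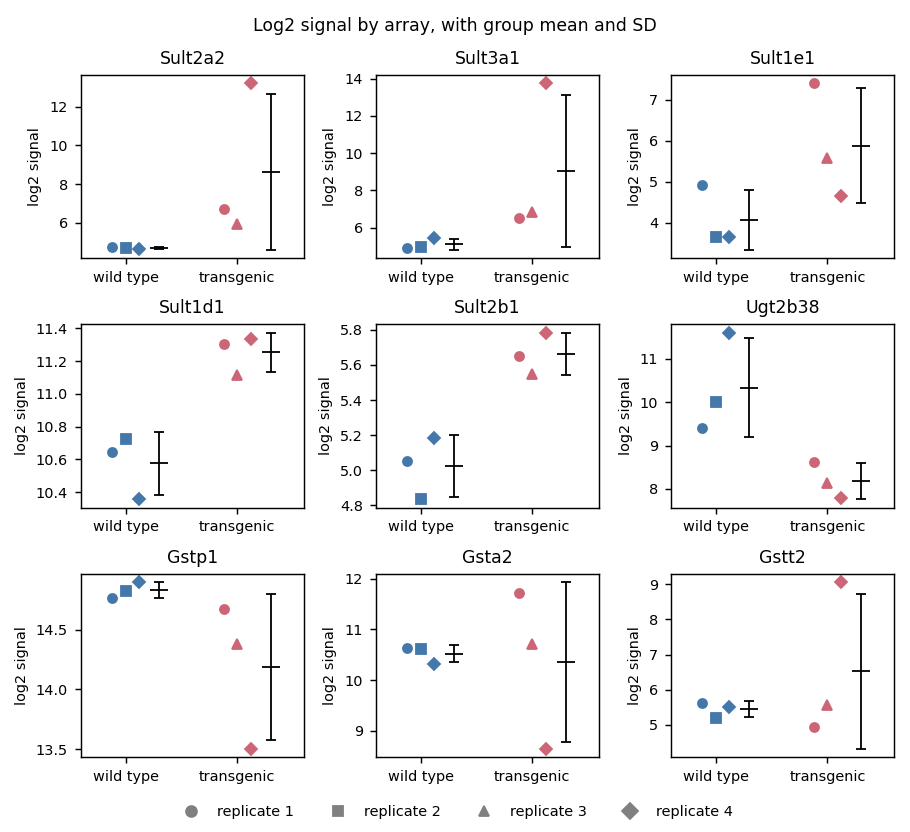
Log2 signal (vertical axes, a separate scale for each gene) of 9 members on the 3 wild-type (blue) and 3 transgenic (red) arrays, with the marker shape giving the replicate number and the black bar the group mean and SD. Sult2a2 and Sult3a1 are near 13 to 14 on transgenic replicate 4, whereas Sult1d1 and Sult2b1 show 3 transgenic arrays close together above the wild-type arrays.

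Sult1d1, a sulfotransferase of catecholamines and other phenols, and Sult2b1, a cholesterol sulfotransferase, also separated the groups without transgenic replicate 4. Sult1d1 read 10.65, 10.72 and 10.36 in wild-type and 11.31, 11.12 and 11.34 in transgenic livers. The transgenic arrays lay close together and above the wild-type arrays. The log2 change was 0.68 ± 0.20 (SE), or 1.6-fold, at an unadjusted limma p of 0.014 and an adjusted p of 0.69. Leaving out single arrays gave 0.57 to 0.75, and subtracting the deviation of neighbouring spots gave 0.29, with overlapping groups, although the probe lay in no patch. Median scaling gave 0.42, also with overlapping groups. Sult2b1 read 5.05, 4.83 and 5.18 in wild-type, under background on each of them, and 5.65, 5.55 and 5.78 in transgenic livers, above background on all 3. It was at least 1.07-fold higher, with a measured log2 change of 0.64 ± 0.20 (limma adjusted p = 0.69). Leaving out single arrays gave 0.54 to 0.72.

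Sult1c1, of the phenol sulfotransferase family, read 11.27, 11.39 and 11.36 in wild-type and 11.98, 11.39 and 11.95 in transgenic livers, with a log2 change of 0.44 ± 0.23. Its groups were barely apart, as wild-type replicate 2 and transgenic replicate 3 were equal to 2 decimals, and median scaling gave 0.16 with overlapping groups. Sult1b1, which sulfates thyroid hormones and phenols, read 9.80, 9.23 and 9.22 in wild-type and 8.88, 9.04 and 9.18 in transgenic livers. All transgenic values lay below, with a log2 change of -0.39 ± 0.24, while its other probe gave -0.23 ± 0.24 and overlapping groups. Without wild-type replicate 1, the highest array, the log2 change of Sult1b1 was -0.19. The other Sult genes (Sult1a1, a phenol sulfotransferase, Sult1c2, Sult4a1 and Sult5a1) had overlapping groups. Sult5a1 read 8.70, 9.49 and 9.08 in wild-type and 9.14, 9.25 and 9.50 in transgenic livers. Sult1b1, Sult1d1 and Sult1e1 lie in a row beside the Ugt2 genes in the RefSeq gene order. Across the 11 measured genes of that row the log2 changes ran from -2.16 to 1.81, with 5 positive and 6 negative, so neighbours did not share a direction.

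Among the glucuronosyltransferases Ugt2b38 and Ugt3a1 separated the groups, and the other 11 overlapped. Ugt2b38 read 9.41, 9.996 and 11.60 on wild-type replicates 1, 2 and 4 and 8.63, 8.13 and 7.78 on transgenic replicates 1, 3 and 4. Every transgenic array lay below every wild-type array, and wild-type replicate 4 was the highest of all. The log2 change was -2.16 ± 0.59 (SE), 4.46-fold lower, with an unadjusted limma p of 0.0098 and an adjusted p of 0.69. The spots around this probe on wild-type replicate 4 were 2.42 above their usual level. Without that array the log2 change was -1.52, and after local correction it was -0.99. Ugt2b35 read 8.83, 8.62 and 9.97 in wild-type and 8.65, 7.76 and 8.09 in transgenic livers, with overlapping groups and a log2 change of -0.97 ± 0.43. It lay in a bright patch on wild-type replicates 2 and 4, and local correction gave -0.07.

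Ugt2b1, a male-biased Ugt2b gene, read 11.21, 10.93 and 11.10 in wild-type and 11.01, 10.89 and 10.39 in transgenic livers, with transgenic replicate 4 the lowest and a log2 change of -0.31 ± 0.24. It was -0.13 without that array and -0.57 with median scaling. Ugt2b5 was even between the groups, at 13.89 to 14.06 and 13.83 to 14.06, with a log2 change of 0.00 ± 0.18. The 3 measured Ugt1 genes, variants of a shared locus that differ in the first exon, had log2 changes of -0.07 to 0.38 and overlapping groups. Ugt1a7c read 8.02, 7.63 and 6.92 in wild-type and 7.65, 7.57 and 8.49 in transgenic livers. Ugt1a2 read 9.15, 9.76 and 8.86 and then 9.19, 8.72 and 10.10. These probes may not separate transcripts that share exons, and neither gene set the groups apart in the main fit. The Ugt1a2 probe lay in a bright patch on wild-type replicates 2 and 4. Local correction gave 0.905 for it, with every transgenic array above every wild-type array. Without transgenic replicate 4 the log2 change of Ugt1a7c went from 0.38 to 0.08, as it did without wild-type replicate 4, and that of Ugt1a2 from 0.08 to -0.30. Another Ugt1a2 probe gave -0.07 ± 1.88, against 0.08 ± 0.42 for the brighter one. Ugt3a1, which uses N-acetylglucosamine as its sugar, read 12.53, 12.59 and 12.62 in wild-type and 12.77, 12.75 and 12.63 in transgenic livers, a log2 change of 0.13 ± 0.17 that turned to -0.20 with median scaling. Ugt3a2 read 13.37, 13.35 and 13.26 and then 13.17, 13.41 and 13.23. Its probes differed in sign, at -0.06 ± 0.18 and 0.05 ± 0.19.

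**Figure D3:**
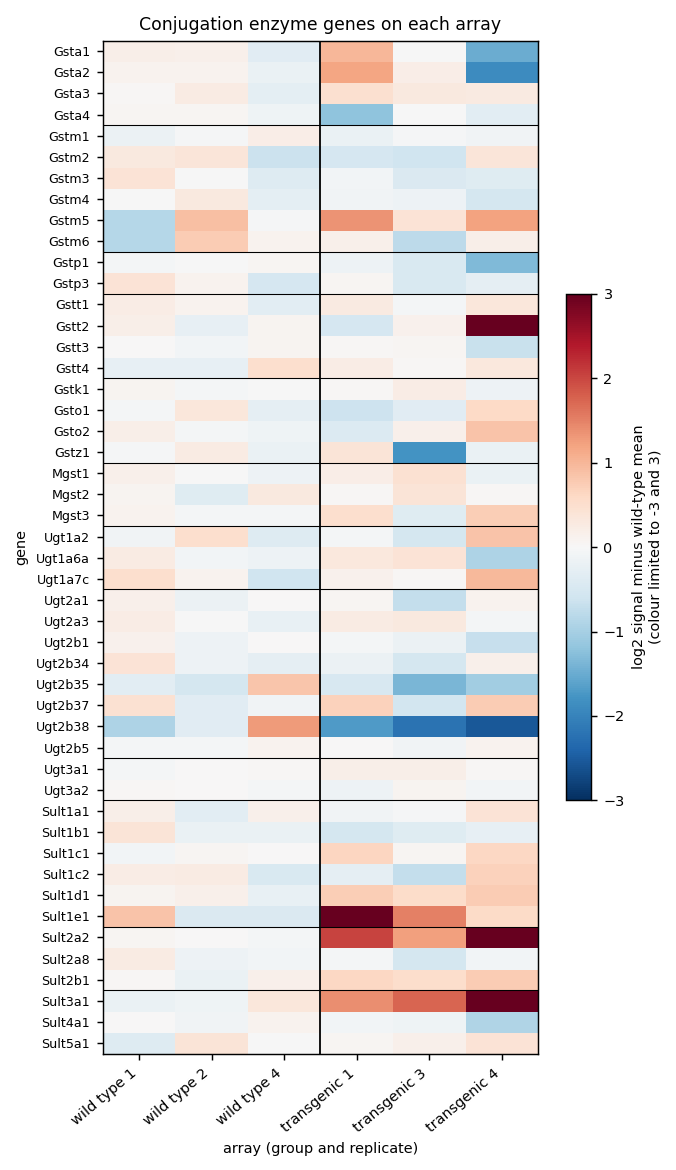
Log2 signal of each gene (rows, by class) on each array (columns) minus the gene's wild-type mean, in colour from -3 (blue) to 3 (red), with values beyond these limits drawn at them. The darkest red is Sult2a2, Sult3a1 and Gstt2 on transgenic replicate 4 and Sult1e1 on replicate 1, the darkest blue Ugt2b38 on replicates 3 and 4, while most Gst and Ugt rows are pale on every array.

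In the alpha class of glutathione S-transferases, which handles lipid peroxidation products, Gsta1 and Gsta2 varied among the transgenic mice by more than the groups' means differed. Gsta1 and Gsta2, chosen here after their values were seen, are close paralogs that the probes may not separate. Gsta2 read 10.63, 10.62 and 10.32 on wild-type replicates 1, 2 and 4 and 11.72, 10.72 and 8.63 on transgenic replicates 1, 3 and 4. Gsta1 read 10.36, 10.33 and 9.84 and then 11.18, 10.18 and 8.69. Both were highest on transgenic replicate 1 and lowest on replicate 4. Their log2 changes were -0.17 ± 0.75 and -0.16 ± 0.62, and without transgenic replicate 4 they were 0.70 and 0.50, with the sign turned. Gsta3, another alpha class enzyme, read 12.20, 12.41 and 11.87 in wild-type and 12.63, 12.45 and 12.43 in transgenic livers, a log2 change of 0.35 ± 0.22 that was 0.02 with median scaling. Gsta4, which conjugates 4-hydroxynonenal, read 10.06, 10.05 and 9.87 and then 8.78, 9.99 and 9.68. Only transgenic replicate 1 was far below, and the log2 change of -0.51 ± 0.34 was -0.16 without it. The Gsta4 probe lay in a bright patch on wild-type replicate 4, and local correction gave -0.29. Median scaling gave -0.68, with every transgenic array below every wild-type array.

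The mu class gave small negative values in 5 of 6 genes, from -0.29 to -0.11, and all groups overlapped. Gstm5 was the exception, at 6.47, 8.24 and 7.30 in wild-type and 8.70, 7.75 and 8.56 in transgenic livers. Its groups overlapped, and its log2 change was 0.99 ± 0.50 (limma adjusted p = 0.69). Leaving out single arrays gave 0.56 to 1.45 for Gstm5. Gstm3 read 10.51, 10.10 and 9.72 in wild-type and 10.03, 9.67 and 9.76 in transgenic livers, with -0.29 ± 0.26. The very bright Gstm1 had -0.11 ± 0.19, and -0.60 with median scaling, where its groups separated.

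Gstp1, the pi class enzyme, read 14.76, 14.83 and 14.90 in wild-type and 14.68, 14.38 and 13.50 in transgenic livers. Transgenic replicate 1 lay just below the wild-type range and replicate 4 far below it. The log2 change was -0.64 ± 0.33 (SE; limma adjusted p = 0.69), -0.30 without transgenic replicate 4 and -1.15 with median scaling. Gstp3 read 7.98, 7.67 and 7.05 and then 7.61, 7.12 and 7.30, with -0.22 ± 0.30. Gstp1 and its neighbours in the gene order are close paralogs, so their signals may be shared.

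Gstt2, a theta class enzyme, was high on a single array. It read 5.62, 5.19 and 5.52 in wild-type and 4.95, 5.57 and 9.05 in transgenic livers. Only transgenic replicate 4 was high. The probe lay in no patch by the cut of 0.5, but the spots around it on that array were 0.49 above their usual level. The log2 change of Gstt2 was 1.08 ± 1.04 with all arrays, 0.60 after local correction and -0.18 without that replicate. Gstt1 read 11.75, 11.63 and 11.23 and then 11.82, 11.48 and 11.88, with overlapping groups and 0.19 ± 0.23. Gstz1, which also isomerizes maleylacetoacetate in tyrosine breakdown, read 13.06, 13.36 and 12.89 in wild-type and 13.50, 11.31 and 12.91 in transgenic livers. The low value on transgenic replicate 3 lay in a dim patch, and without that array the log2 change went from -0.53 to 0.10. Gsto2, which reduces dehydroascorbate, read 9.44, 9.21 and 9.13 and then 8.85, 9.42 and 10.13. Its groups overlapped, and the log2 change of 0.20 ± 0.35 was -0.23 after local correction. The microsomal enzyme Mgst1 read 12.57, 12.40 and 12.26 and then 12.62, 12.87 and 12.20, and Mgst3 10.70, 10.52 and 10.52 and then 11.07, 10.23 and 11.31. Both groups overlapped, with log2 changes of 0.15 ± 0.24 and 0.29 ± 0.32, and median scaling turned Mgst1 to -0.19. Without transgenic replicate 4 they were 0.33 and 0.07. Local correction gave 0.80 for Mgst3, with every transgenic array above every wild-type array, although its probe lay in no patch.

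Members known to differ by sex in mouse liver, apart from Sult1e1, lay farthest from the wild-type mean on transgenic replicate 4. Of 10 members listed as higher in females, the 3 measured (Sult1e1, Sult2a2 and Sult3a1) lay above their wild-type mean by 2.25, 1.5 and 5.92 on average on transgenic replicates 1, 3 and 4. The wild-type arrays ran from -0.18 to 0.23. Of 4 listed as higher in males, the 3 measured (Gstp1, Ugt2b1 and Ugt2b38) averaged -0.64, -0.95 and -1.52 from it, against -0.29 to 0.45 in wild-type. Ugt2b38 carried most of that average, at -1.71, -2.20 and -2.55, against a wild-type mean that includes the array in a bright patch. Gstp1 was at -0.15, -0.45 and -1.33, and Ugt2b1 at -0.07, -0.19 and -0.69. Female-biased genes outside the family, such as Cyp2b9 and Hao2, averaged 1.69, 0.95 and 4.73 on the same 3 arrays, and male-biased ones, such as Hsd3b5 and Slco1a1, averaged -1.19, -0.36 and -2.42. These list averages were widest on replicate 4, the array low in 3 of the 4 measured Y-linked transcripts. The labels give no sex, so a difference in sex and an effect of the transgene cannot be told apart on that array. The part of either in the members' values was not tested. Without replicate 4, 5 members were higher at an unadjusted limma p under 0.05 (Sult1d1, Sult1e1, Sult2a2, Sult2b1 and Sult3a1) and 1 lower (Ugt2b38). Of all features 2.79% and 2.25% were. Of the 5, Sult1e1, Sult2a2 and Sult2b1 were above background on no wild-type array and Sult3a1 on 1. Leaving out transgenic replicate 3 instead gave Mgst3, Sult1c1, Sult1d1, Sult2a2 and Sult2b1 as higher (3.08% of all features). None passed an adjusted p of 0.05. Without replicate 4, 12 members separated the groups upward and 4 downward, where 15% and 10.4% of all features did.

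**Figure D4:**
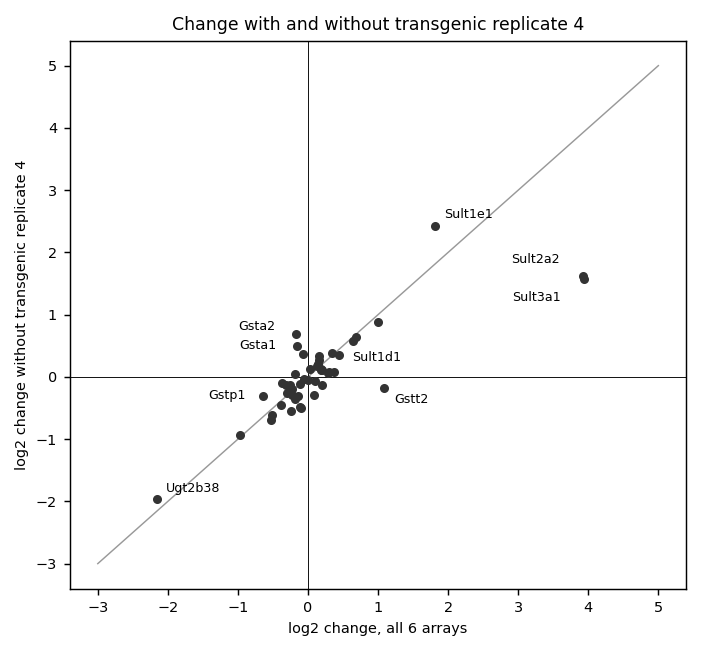
Log2 change of each of the 48 genes with all 6 arrays (horizontal axis) against the change without transgenic replicate 4 (vertical axis), each point a gene and the grey line marking equal values. Sult2a2 and Sult3a1 drop from near 3.9 to near 1.6, Gstt2 crosses 0, and Gsta1 and Gsta2 move from below to above 0.

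The transgenic SD was the larger in 28 of the 48 members (58.3%), against 44.2% of all features. Transgenic replicate 4 was the transgenic array farthest from the wild-type mean in 47.9% of members and 40.7% of features, and in 7 of 12 Sult genes. Values more than 1 log2 unit outside the wild-type range were counted array by array. On transgenic replicate 4 there were 3 above (Gstt2, Sult2a2 and Sult3a1), 6.25% of members beside 3.66% of all features. There 4 lay below (Gsta1, Gsta2, Gstp1 and Ugt2b38), 8.33% beside 1.98%. On replicate 1 there were 4 above (Gsta2, Sult1e1, Sult2a2 and Sult3a1), 8.33% beside 1.16%, and 1 below (Gsta4), 2.08% beside 1.1%. On replicate 3 there were 2 above (Sult2a2 and Sult3a1), 4.17% beside 3.87%, and 2 below (Gstz1 and Ugt2b38), 4.17% beside 1.48%. Sult2a2 and Sult3a1 were thus the members more than 1 log2 unit above the wild-type range on all 3 transgenic arrays.

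The genes that feed, assist or control conjugation did not pass limma's test either, with 0 of the measured genes called in each list. Of 13 measured genes of glutathione supply and breakdown, 0 had an unadjusted p under 0.05, and the median log2 change was 0.01. Cbs, of the path from methionine to cysteine, had -0.36 ± 0.22, and Gsr, glutathione reductase, -0.37 ± 0.31. Cbs lay in a patch on 2 arrays and was 0.24 after local correction, and Gsr was -0.23. Gclc, the catalytic subunit that limits glutathione synthesis, chosen after its values were seen, read 12.06 on transgenic replicate 1 and 10.50 to 10.89 on the other arrays, with overlapping groups. The 6 genes of UDP-glucuronate supply had a median of -0.11, with Ugdh, which makes UDP-glucuronate, at 0.22 ± 0.30 and the transporter Slc35d1 at -0.40 ± 0.26 (-0.24 after local correction). The 7 measured genes of PAPS and sulfate supply had a median of -0.38. Papss1, a PAPS synthase, had -0.50 ± 0.37, and the sulfate transporter Slc26a1 -0.38 ± 0.23, with every transgenic array below. None of these 3 lists had a member at an unadjusted p under 0.05.

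Other conjugating enzymes gave negative values in 13 of 17 genes, with a median of -0.15, and 0 had an unadjusted p under 0.05. The methyltransferase gene Inmt was lower on all transgenic arrays, at 13.36 to 13.91 against 14.00 to 14.38 (log2 change -0.56 ± 0.24, and -0.24 after local correction of a patch), and the acetyltransferase gene Nat2 likewise, at 5.96 to 6.35 against 6.50 to 7.32. The 5 measured exporters of conjugates had a median of -0.14. Among them Abcc6 had -0.37 ± 0.29 (-0.16 after local correction), and Abcg2, which exports sulfates, read 8.15 on transgenic replicate 4 against 9.73 to 10.35 elsewhere, so that its log2 change went from -0.48 to 0.18 without that array. Of 19 measured regulators, 1 was higher at an unadjusted p under 0.05, the estrogen receptor gene Esr1, at 5.50 to 5.86 against 3.61 to 5.24 (log2 change 1.14 ± 0.44), above background on 3 arrays. Hnf4a, a hepatocyte transcription factor, had 0.45 ± 0.21 and 0.00 after local correction. Cux2, a female-biased regulator in mouse liver, had 0.61 ± 0.32.

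NRF2 targets outside the family gave positive values in 10 of 13 genes, with a median of 0.14 and 0 at an unadjusted p under 0.05. Taldo1 and G6pdx, of the pentose phosphate path, had -0.50 ± 0.25 and -0.93 ± 0.66. Taldo1, in a patch on 1 array, was 0.13 after local correction. G6pdx read 10.18 on wild-type replicate 4 and 7.38 to 8.05 on the other arrays. Nqo1, a quinone reductase chosen after its values were seen, read 10.53 on transgenic replicate 4 and 6.88 to 7.52 on the other 5 arrays, in patches on 2 arrays, with a log2 change of -0.02 without that replicate. Srxn1 read 10.15 on transgenic replicate 1 and 6.90 to 8.08 elsewhere. Of 11 measured CAR and AHR targets, 1 was lower at an unadjusted p under 0.05, Cyp1a2, at 12.44 to 12.83 against 13.07 to 13.39 (log2 change -0.56 ± 0.21), and the median was -0.12. Por, the reductase partner of the P450 enzymes, had 0.59 ± 0.27. Cyp1a2 is also a pericentral hepatocyte gene. The pericentral list of 8 measured genes had a median of -0.05 and the periportal list of 8 a median of -0.07, with Cdh1 and Hal lower at an unadjusted p, of which Hal was 0.10 after local correction. Markers of Kupffer, endothelial, stellate, T, B and NK, neutrophil, erythroid, bile duct, intestinal and pancreatic cells had 0 genes called by limma. At an unadjusted p, Cd3g and Nkg7 of the T, B and NK list and Tff3 of the intestinal list were lower. Of the 7 measured lymphocyte genes 5 were negative and 2 positive, with Cd79a higher on every transgenic array (0.56, and -0.06 after local correction of a patch), and their summed signal was 1037 to 1109 in wild-type and 936 to 1712 in transgenic livers. Of the 4 intestinal genes 3 were negative, and Vil1 was higher on every transgenic array (0.69 ± 0.31).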

How the data were processed

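Total RNA was amplified to biotin-labelled cRNA and stained with Alexa-647 streptavidin on 1-colour arrays, per the labels' protocols. The deposited intensity of each spot is the signal after background was taken out by the authors, per the file headers. The authors' value table holds the same intensity divided by 1 constant per array. No scanner or image software is named (not given in the sources used here).

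Control spots (620) were dropped. A floor at the 1st percentile of positive signals (4.72 to 5.75) was set on each array, and log2 values of 34967 probes were quantile normalized. Accessions without versions were matched to RefSeq (GRCm38.p6), which named 14763 probes. A gene with several probes is represented by the one with the highest mean. The background threshold lay 3 scaled median absolute deviations over the median of 570 control spots (33.0 to 50.6). A patch is a spot whose neighbours within 4 rows and columns deviate by a median over 0.5. limma 3.58.1 in R 4.3.3 fitted all 34175 features (two-sided, Benjamini-Hochberg), after tests on simulated data. A bound ("at least") sets the brighter mean against the dim group raised, on each array, to the lowest signal above background. It holds only where every array of the brighter mean is above background, and the groups may still overlap.

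Values on every array are given for members above background on at least 3 arrays that did not overlap between groups or had the 2 smallest p of their class, for sex-biased members, and for members whose probes differ in sign. Genes of other lists are named among the 3 with the smallest p, with exceptions stated. Alternatives changed the normalization, floor, dim-probe filter, spread model, probe choice, patches and arrays. Members and lists were chosen with earlier results of these data known. The labels number the samples, and p-values measure only the spread between these samples. The number of arrays limits the precision. Replicate numbers 1 and 4 occur in both groups, without a statement that they pair mice.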

Additional observations from a re-analysis of the deposited data

How the results depend on the processing

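No member passed an adjusted p of 0.05 under any alternative run, where the smallest adjusted p of a named member was 0.565. Over all features 1 was called with the probe of smallest spread (Ang), 0 to 1 when single arrays were left out (1 each without wild-type replicate 1 and without transgenic replicate 4) and 0 otherwise. Higher and lower members at an unadjusted p, 2 and 1 as reported, were 1 and 3 with median scaling and with the authors' value table, 1 and 2 for probes over background on 6 arrays (5.4% and 2.78%), 4 and 2 with a trended spread (4.17% and 2.6% of all features), and 4 and 1 after local correction of patches (3.64% and 3.99%). Outside patches 3 of 36 members were higher (5.01%) and 0 were lower (2.77%). Leaving out single arrays gave 2 to 5 higher and 1 to 3 lower (2.79% to 4.56% and 1.88% to 3.89% of all features), with 5 higher without transgenic replicate 3 or 4 and 3 lower without transgenic replicate 1. Members with every transgenic array above, 7 as reported, were 3 with median scaling (8.03% of all features) and with the authors' table (8.04%). They were 5 with cyclic loess (8.68%), 8 after local correction (9.32%) and 4 of 41 for probes over background on 6 arrays (10.9%). Those below, 3 as reported, were 6 with median scaling (7.57%) and with the authors' table (7.54%). Cyclic loess gave 5 below (8.11%) and local correction 2 (8.41%). Leaving out single arrays gave 7 to 12 above and 3 to 7 below, where the shares of all features were 13.7% to 16.8% and 7.93% to 14.7%.

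Among the members given by name, 574 values under alternatives had the reported sign and 23 the opposite. Median scaling and the authors' table turned Gstt1 to -0.12, Mgst1 to -0.19 and Ugt3a1 to -0.20, and Ugt1a2 to -0.018 and -0.017. Cyclic loess turned Ugt3a2 to 0.00048. Array weights turned Gsta1 to 0.087, Gsta2 to 0.17 and Ugt1a2 to -0.17. Local correction turned Gsto2 to -0.23 and Gstp3 to 0.064. Leaving out single arrays gave -0.74 to 0.50 for Gsta1, -0.85 to 0.70 for Gsta2, -0.13 to 0.51 for Gsto2, -0.18 to 1.87 for Gstt2, -0.30 to 0.39 for Ugt1a2 and -0.99 to 0.10 for Gstz1. The opposite signs came without transgenic replicate 4, for Ugt1a2 also without wild-type replicate 4, and for Gstz1 without transgenic replicate 3. The cause was not tested.

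With the replicate number as a block, a fit that compares the groups within numbers 1 and 4 alone, 0 features were called. At an unadjusted limma p under 0.05, 2 members were higher (Gstm5 and Sult1e1, beside 1.99% of all features) and 0 were lower (1.96%). Sult1d1, Sult2b1 and Ugt2b38 were not among them. Gstz1 was 0.23 and Mgst1 -0.0040 in this fit. The deviations of same-numbered arrays from their group means correlated at 0.060 and 0.058 across features, and these are 2 pairs, so the numbers were not used as pairs. Signal over background limits Sult1e1 and Sult4a1, above background on 2 arrays, and Gstt2, Sult2a2 and Sult2b1, above it on 3.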
